A study of Mus musculus with 6 samples.

Results

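To follow receptor tyrosine kinase output at the transcript level, 10 genes that are induced through the ERK (extracellular signal-regulated kinase) pathway were examined among the 53465 genes measured in axitinib-resistant (AxR) and parental (P) 4T1 cells. The genes were listed by name and matched by symbol: the MAP kinase phosphatases Dusp4, Dusp5 and Dusp6, the Sprouty family members Spry1, Spry2, Spry4 and Spred1, and the transcription factors Etv4, Etv5 and Fosl1. All 10 had enough counts to be among the 13550 genes tested. The 4T1 line is a mouse mammary carcinoma, and RNA from 3 P and 3 AxR libraries was sequenced after selection of polyadenylated RNA. AxR cells came from a metastatic lesion of mice given 100 mg/kg/day of axitinib, an inhibitor of VEGF receptors, and were then cultured with 0.5 μM axitinib for more than 2 months. The treatment labels name axitinib for AxR samples alone, whereas the growth text of the labels names it for all 6 samples. The resistant cells are 1 derived line, so drug exposure, growth in the animal and separate culture cannot be told apart. Nothing states that the replicates were separate cultures, so p-values measure the spread between these libraries, which may be technical.

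In the ERK pathway, activated receptor kinases switch on RAS proteins, which start a chain of RAF, MEK and ERK kinases. Active ERK induces its own inhibitors: Sprouty and Spred proteins act between the receptor and RAF, and MAP kinase phosphatases remove phosphate from ERK itself. It also induces transcription factors of the ETS and AP-1 families. Transcripts of these genes are widely used as a readout of pathway activity in tumors.

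The libraries held between 15495260 and 17294525 estimated counts, and the members had between 308 and 4178 estimated counts per library. Levels are given as CPM, counts per 1000000 of the normalized library size. Within a line no library was a copy of another, since pairs of libraries had a chi-square per degree of freedom between 5.10 and 19.7. At the edgeR threshold used below, an adjusted p of 0.05, 32.8% of all genes tested were higher in AxR cells and 30.8% lower. Of 7 epithelial markers all were tested, 5 being higher and 2 lower in AxR cells. Their summed level was between 1788 and 1948 CPM in P libraries and between 2538 and 2624 CPM in AxR libraries. Summed levels of leukocyte, fibroblast, endothelial and lung epithelial markers were at most 1.02 CPM in any library, and none of these markers had enough counts to be tested. Tyrobp, Fcer1g, Cd3e, Col3a1, Lum, Kdr and Scgb1a1 had no count in any library, and 3 counts, the limit a count of 0 allows, are at most 0.196 CPM in these libraries (counting error only). All 6 proliferation genes were higher in AxR cells, their summed level being between 1478 and 1671 CPM in P libraries and between 2221 and 2584 CPM in AxR libraries. The part of this difference in the results that follow was not tested.

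The ERK feedback and output genes did not move together. With the quasi-likelihood test of edgeR and an adjusted p of 0.05 as threshold, 2 members were higher in AxR cells (Spry1 and Spry4), 6 were lower (Fosl1, Dusp5, Etv4, Dusp6, Spry2 and Etv5), and 2 did not pass (Dusp4 and Spred1). Of all genes tested, 63.5% were called in either direction, 32.8% being higher and 30.8% lower, so a call by itself is common between these lines. Libraries of the lines did not overlap for 7 of the 10 members, against 68.3% of all genes tested. The median log2 fold change was -0.30 over the members and 0.0058 over all genes tested. In bulk RNA, fewer cells with a transcript and less transcript per cell cannot be told apart.

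**Figure D1:**
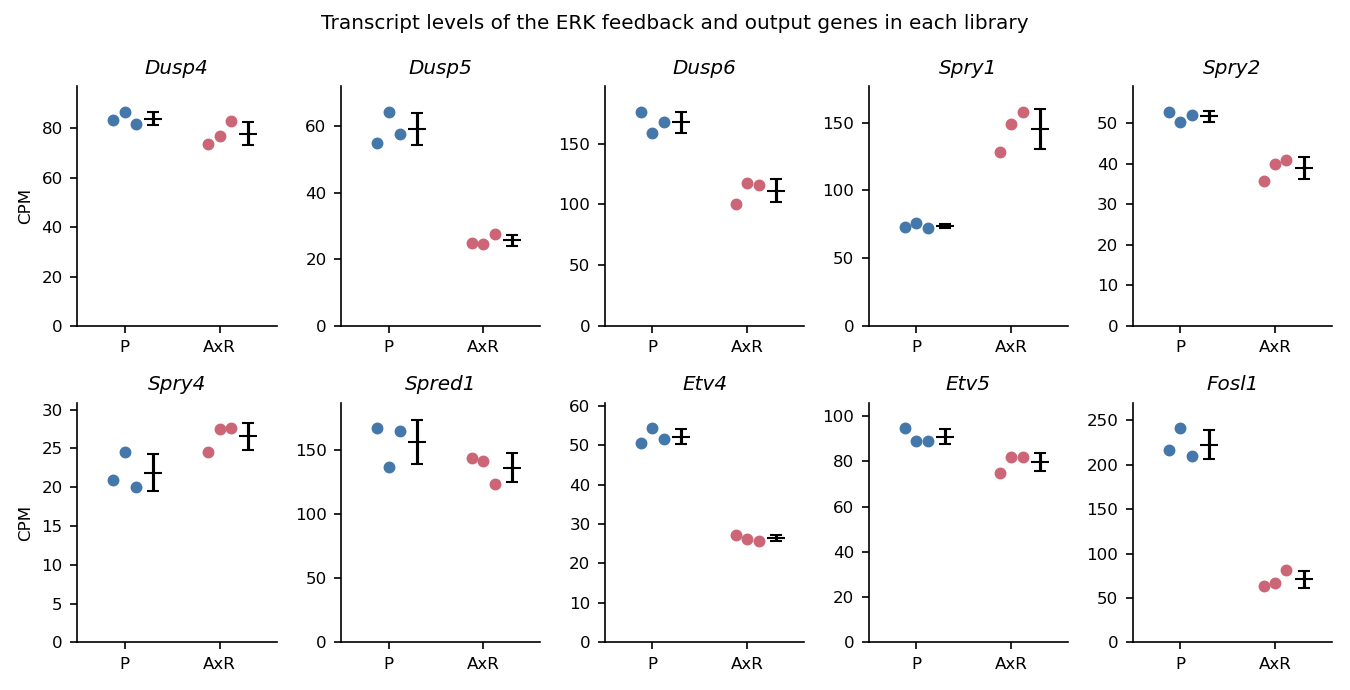
Level of each member in CPM (linear axis from 0) in the 3 P (blue) and 3 AxR (red) libraries, with the mean and SD of each line beside the points. Fosl1, Dusp5, Dusp6, Etv4, Etv5 and Spry2 libraries of AxR cells sit below every P library, those of Spry1 sit above, and those of Dusp4, Spry4 and Spred1 overlap.

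Among the phosphatases, Dusp5 and Dusp6 fell and Dusp4 did not pass the test. Dusp5, a nuclear phosphatase that acts on ERK (ENSMUSG00000034765.6, chromosome 19 of GRCm38 from 53529109 to 53542431, plus strand), had 55.0, 64.3 and 57.7 CPM in P replicates 1 to 3 and 24.9, 24.6 and 27.6 CPM in AxR replicates 1 to 3. AxR libraries all lay far below the P libraries. Means were 59.0 ± 4.79 and 25.7 ± 1.67 CPM (SD, n = 3 each). Dusp5 thus fell by 1.20 on the log2 scale (standard error, SE, 0.077, adjusted p = 3.37e-09 by the quasi-likelihood test of edgeR), and 3.54% of all genes tested fell by as much or more. Dusp6, a cytoplasmic phosphatase with a strong preference for ERK (ENSMUSG00000019960.8, chromosome 10 from 99263231 to 99267489, plus strand), had 176, 158 and 167 CPM in P cells and 100.3, 118 and 116 CPM in AxR cells. The lines were again separate, and Dusp6 fell by 0.59 on the log2 scale (SE 0.065, adjusted p = 1.37e-06 by the same edgeR test). Dusp4, a nuclear phosphatase that acts on ERK and on other MAP kinases (ENSMUSG00000031530.6, chromosome 8 from 34807297 to 34819894, plus strand), had 83.2, 86.7 and 81.8 CPM in P cells and 73.5, 77.0 and 82.8 CPM in AxR cells. AxR replicate 3 lay within the range of the P libraries. The fitted log2 fold change, -0.11, had an SE of 0.058 and an adjusted p of 0.114 by edgeR. Without AxR replicate 3 Dusp4 passed the threshold (log2 fold change -0.16, adjusted p = 0.0276 by edgeR), and the alternatives of edgeR, DESeq2 and limma gave adjusted p-values from 0.0276 to 0.363.

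Promoter sequences were available for Dusp5, Dusp6, Spry1, Spry2, Spred1 and Etv5, the last with 2 start sites. Those of 3 members that fell are shown because each holds a motif of a factor tied to ERK signaling, a motif search that was made after the fold changes were known. Each is the 250 bases before the transcription start in RefSeq on GRCm38.p6, 5′ to 3′ on the strand of the gene. Capitals mark 2 adjacent CArG boxes, the sites of serum response factor, in Dusp5 (chr19:53528895-53529144, plus strand). In Dusp6 (chr10:99262981-99263230, plus strand) and Spry2 (chr14:105896820-105897069, minus strand) capitals mark an octamer of Capicua, a repressor that ERK inactivates.
Dusp5: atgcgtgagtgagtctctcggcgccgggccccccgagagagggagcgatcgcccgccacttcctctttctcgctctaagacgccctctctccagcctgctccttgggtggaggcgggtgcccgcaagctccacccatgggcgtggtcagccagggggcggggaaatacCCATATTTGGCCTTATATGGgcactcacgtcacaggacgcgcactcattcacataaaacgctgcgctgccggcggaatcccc
Dusp6: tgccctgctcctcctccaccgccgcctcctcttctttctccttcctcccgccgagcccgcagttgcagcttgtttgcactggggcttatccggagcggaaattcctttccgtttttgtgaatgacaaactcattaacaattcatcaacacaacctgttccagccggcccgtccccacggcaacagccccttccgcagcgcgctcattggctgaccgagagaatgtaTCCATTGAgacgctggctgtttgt
Spry2: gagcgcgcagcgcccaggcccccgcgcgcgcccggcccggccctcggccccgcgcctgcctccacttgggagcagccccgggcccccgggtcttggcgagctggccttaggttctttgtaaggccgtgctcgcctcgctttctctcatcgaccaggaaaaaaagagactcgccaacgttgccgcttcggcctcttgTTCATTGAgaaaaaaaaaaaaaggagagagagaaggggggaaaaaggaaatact
The Capicua octamer was searched as TGAATGAA, TGAATGGA, TCAATGAA or TCAATGGA on both strands. It was found in 2 of 7 member windows and in 3.19% of all 32851 RefSeq windows of the same length. In Dusp6 it lay from 24 to 17 bases, and in Spry2 from 54 to 47 bases, before the start. The 2 CArG boxes of Dusp5 lay from 82 to 73 and from 72 to 63 bases before the start, and 1.47% of all windows held at least 1. The AP-1 site TGANTCA, the cAMP response element TGACGTCA and the ETS site CCGGAA were not in any of the 7 windows and were in 6.75%, 1.55% and 12.03% of all windows. The GC box GGGCGG was in 4 of the 7 windows, those of Dusp5, Spry1, Spred1 and the upstream start site of Etv5, and in 32.7% of all windows. These are matches of letters, and binding was not measured.

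The Sprouty genes moved in opposite directions. Spry1, a membrane-associated inhibitor of signaling from receptor kinases (ENSMUSG00000037211.12, chromosome 3 from 37639947 to 37644598, plus strand), had 73.0, 75.6 and 72.6 CPM in P cells and 129, 149 and 158 CPM in AxR cells. All AxR libraries were above all P libraries, with means of 73.7 ± 1.63 CPM (SD, n = 3) and 145 ± 15.1 CPM (SD, n = 3) in P and AxR cells. Spry1 rose by 0.98 on the log2 scale (SE 0.069, adjusted p = 1.39e-08 by edgeR), and 8.35% of all genes tested rose by as much or more. Spry2, its paralog (ENSMUSG00000022114.5, chromosome 14 from 105891947 to 105896819, minus strand), had 52.8, 50.2 and 51.9 CPM in P cells and 35.8, 39.9 and 40.9 CPM in AxR cells. Here all AxR libraries were below all P libraries, and Spry2 fell by 0.41 on the log2 scale (SE 0.067, adjusted p = 7.24e-05 by edgeR).

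Spry4, the least abundant member per length, and Spred1, a related inhibitor that recruits the RAS inactivator neurofibromin, both had libraries that overlapped between the lines. Spry4 (ENSMUSG00000024427.6, chromosome 18 from 38586247 to 38601415, minus strand) had 20.97, 24.54 and 20.08 CPM in P cells and 24.51, 27.55 and 27.59 CPM in AxR cells. P replicate 2 lay just above AxR replicate 1, so the lines touched. Spry4 rose by 0.28 on the log2 scale (SE 0.087, adjusted p = 0.0116 by edgeR). Without P replicate 3 its log2 fold change was 0.23 and did not pass (adjusted p = 0.0672 by edgeR), and the alternatives of edgeR, DESeq2 and limma gave adjusted p-values from 0.00207 to 0.0672. Spred1 (ENSMUSG00000027351.14, chromosome 2 from 117121374 to 117182279, plus strand) had 167, 136 and 164 CPM in P cells and 144, 141 and 123 CPM in AxR cells. P replicate 2 was lower than 2 of the AxR libraries. The fitted log2 fold change of -0.20 (SE 0.082, adjusted p = 0.0515 by edgeR) was next to the threshold. Spred1 passed it in 8 of 13 alternatives, among them without P replicate 2 (adjusted p = 0.00147 by edgeR) and without AxR replicate 1 (adjusted p = 0.0465 by edgeR), and the highest adjusted p was 0.190.

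All 3 transcription factors were lower in AxR cells. The largest change of any member was in Fosl1, which encodes the AP-1 subunit FRA1 (ENSMUSG00000024912.5, chromosome 19 from 5447547 to 5455946, plus strand). Fosl1 had 216, 241 and 210.0 CPM in P cells and 64.0, 67.2 and 81.8 CPM in AxR cells. The lowest P library thus held more than 2 times the level of the highest AxR library. Means were 223 ± 16.5 and 71.0 ± 9.47 CPM (SD, n = 3 each), and Fosl1 fell by 1.65 on the log2 scale (SE 0.087, adjusted p = 1.64e-08 by edgeR). A fall as large was seen in 2.29% of all genes tested. Ccdc85b overlaps Fosl1 on the other strand, and its mean level was 10.2 CPM in P and 14.0 CPM in AxR cells. The same holds for Gm42922 at Spry1, with 0.720 and 0.918 CPM. The study made its libraries with a stranded kit. Whether counting used strand is not given in the sources used here, so reads of such partners may not be told apart.

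Etv4 and Etv5, ETS factors of the PEA3 group, both fell. Etv4 (ENSMUSG00000017724.14, chromosome 11 from 101769742 to 101785371, minus strand) had 50.6, 54.3 and 51.4 CPM in P cells and 27.1, 26.3 and 25.6 CPM in AxR cells. It varied least between replicates of AxR cells, with a coefficient of variation of 2.89%. Etv4 fell by 0.99 on the log2 scale (SE 0.065, adjusted p = 5.27e-09 by edgeR). Etv5 (ENSMUSG00000013089.15, chromosome 16 from 22381309 to 22439719, minus strand) had 94.6, 89.0 and 88.9 CPM in P cells and 74.9, 81.9 and 82.1 CPM in AxR cells. The lines did not overlap but lay close, and Etv5 fell by 0.19 on the log2 scale (SE 0.057, adjusted p = 0.00867 by edgeR). Without P replicate 1 the log2 fold change of Etv5 was -0.15 and did not pass (adjusted p = 0.0606 by edgeR), and the alternatives of edgeR, DESeq2 and limma gave adjusted p-values from 0.00580 to 0.0606. For single members whose lines did not overlap, the exact two-sided permutation p was 0.1, the smallest that 3 libraries against 3 allow, and it was 0.2 for Dusp4 and Spry4 and 0.3 for Spred1.

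The lines also differ along whole chromosomes, so each member was set beside the genes around it. Spry4, Etv5 and Dusp4 lie on chromosomes whose tested genes had a median of the same sign and further from 0. For Spry4 the median log2 fold change was 0.50 over 318 genes of chromosome 18 and 0.47 over the 25 tested genes on each side. For Etv5 it was -0.32 over 397 genes of chromosome 16 and -0.32 over the genes on each side. For Dusp4, which did not pass the test, it was -0.18 over 749 genes of chromosome 8 and -0.13 over the genes on each side. Spry1 was above both medians, 0.32 over 717 genes of chromosome 3 and 0.23 over the genes on each side. Dusp6 went against its chromosome, whose median was 0.25 over 670 genes, while the median over the genes on each side was 0.075. Dusp5 and Fosl1, both on chromosome 19 and far apart, and Etv4 had chromosome medians of 0.0014, 0.0014 and 0.0077. Over the genes on each side their medians were 0.062, 0.055 and 0.080. For Spry2 and Spred1 the chromosome medians were 0.076 and -0.093, that of Spred1 having the sign of the member and lying nearer to 0. Over the genes on each side the medians were -0.060 for Spry2 and -0.11 for Spred1, both with the sign of the member. The part of chromosome position in the change of any member was not tested.

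**Figure D2:**
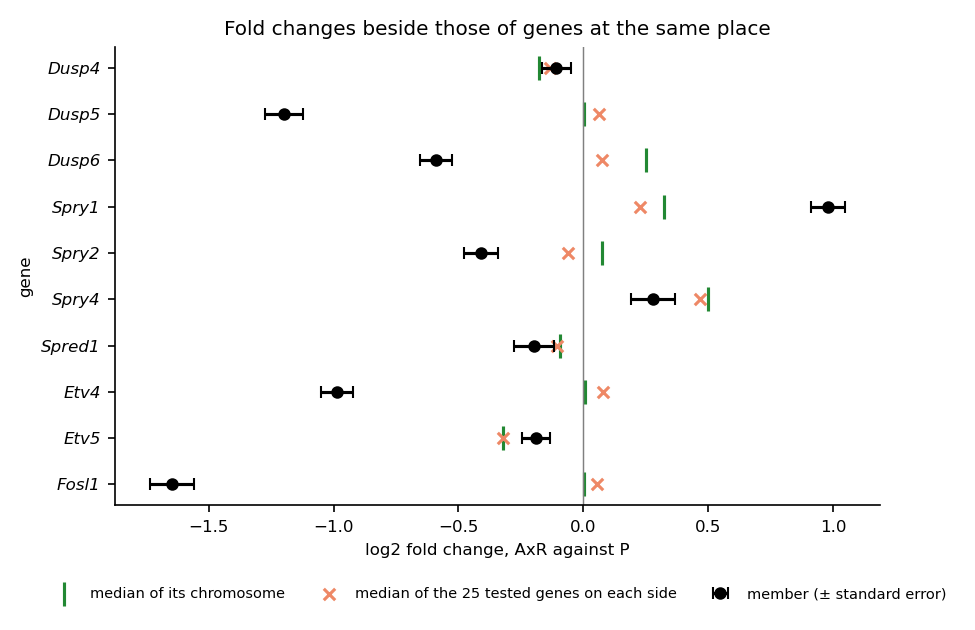
Log2 fold change of each member in AxR against P cells (black points, bars ± 1 standard error), with the median of all tested genes on its chromosome (green lines) and of the 25 tested genes on each side (orange crosses). Fosl1, Dusp5 and Etv4, at -1.65, -1.20 and -0.99, stand far from medians near 0, whereas Spry4, Etv5 and Dusp4 stand nearer to 0 than the medians of their chromosomes.

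Levels of different genes were compared per length, as CPM per kilobase of annotated exon. In P cells Fosl1 was the most abundant member, with 109 ± 8.11 CPM per kb (SD, n = 3), followed by Dusp6 with 53.4 ± 2.82 and Dusp4 with 30.6 ± 0.931. Spry1, Spry2, Dusp5, Spred1 and Etv5 followed at between 25.4 and 22.1 CPM per kb, each overlapping the next, and Etv4 and Spry4 were lowest at 16.8 and 4.598. In AxR cells Spry1 was the most abundant with 50.0 ± 5.19 CPM per kb (SD, n = 3). Dusp6 and Fosl1 came next at 35.5 ± 3.05 and 34.9 ± 4.66 CPM per kb and overlapped. Dusp4 had 28.4 CPM per kb, Spred1, Etv5 and Spry2 lay between 20.02 and 18.6, each overlapping the next, and Dusp5, Etv4 and Spry4 were lowest at 10.4, 8.48 and 5.58.

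Shares within families were mostly separate between the lines. Spry1 made up 45.8%, 47.1% and 46.2% of the summed per-length level of Spry1, Spry2 and Spry4 in P libraries, and 66.5%, 67.4% and 68.2% in AxR libraries. The share of Spry2 was 45.2% ± 1.45 (SD, n = 3) in P cells, next to that of Spry1, and 25.1% ± 0.607 (SD, n = 3) in AxR cells. Spry4 made up little of the sum, 8.40% ± 0.825 and 7.54% ± 0.240 (SD, n = 3 each). The summed level of the 3 Sprouty genes was 54.7 ± 0.597 CPM per kb in P cells and 74.2 ± 6.83 in AxR cells (SD, n = 3 each), a ratio of 1.36. Among the phosphatases, Dusp4 made up 28.4% ± 0.747 in P cells and 38.2% ± 0.956 in AxR cells (SD, n = 3 each), and Dusp5 made up 22.1% ± 1.81 and 14.0% ± 0.771 (SD, n = 3 each). Dusp6 had overlapping shares of 49.5% ± 2.52 and 47.8% ± 1.73 (SD, n = 3 each, exact two-sided permutation p = 0.4). The sum of the 3 phosphatases was 108 ± 1.16 CPM per kb in P cells and 74.3 ± 4.83 in AxR cells (SD, n = 3 each), a ratio of 0.688. Etv4 made up 43.1% ± 1.62 of the sum of Etv4 and Etv5 in P cells and 30.4% ± 1.69 in AxR cells (SD, n = 3 each). Apart from Dusp6, the shares of each gene and the 3 sums were separate between the lines (exact two-sided permutation p = 0.1, the smallest possible).

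**Figure D3:**
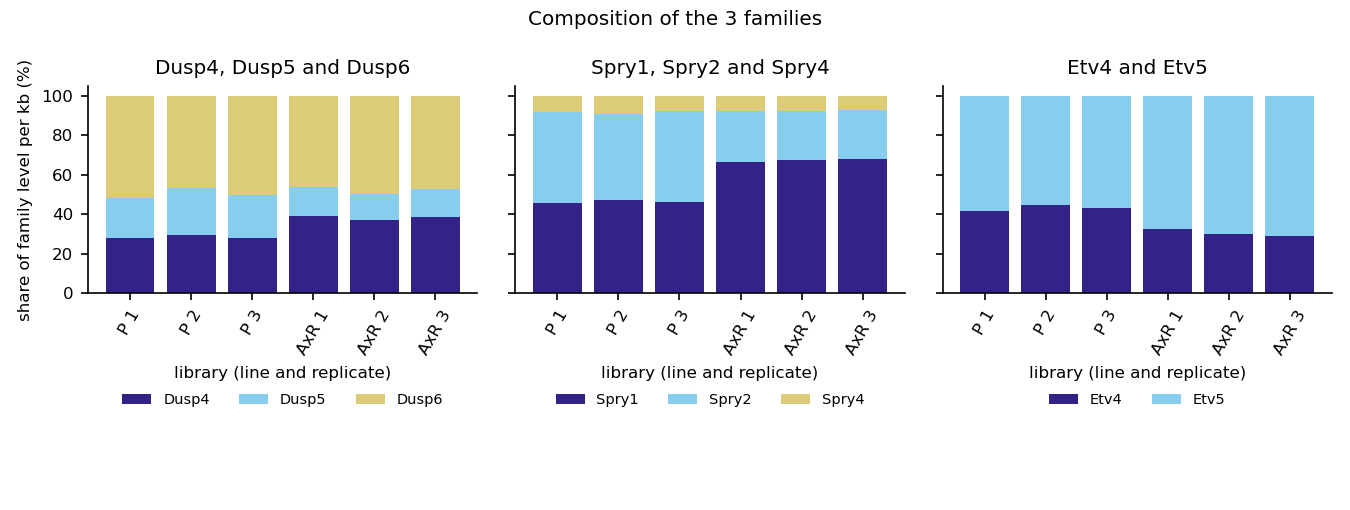
Share of each gene in the summed CPM per kb of its family (stacked bars from 0 to 100%), in each of the 6 libraries. The Spry1 share is between 45.8% and 47.1% in P and between 66.5% and 68.2% in AxR libraries, while the Dusp6 share overlaps between the lines.

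Further lists covered other MAP kinase phosphatases, whose action on ERK was not measured, other inhibitors, other output genes and cascade components. Their counts are to be read beside all genes tested, of which 32.8% were higher and 30.8% lower in AxR cells. Of 7 other MAP kinase phosphatases, 6 were tested, 3 fell and 3 did not pass (median log2 fold change -0.22). Dusp7, a cytoplasmic ERK phosphatase related to Dusp6, had 115, 111 and 105 CPM in P cells and 43.4, 45.3 and 44.1 CPM in AxR cells. The fall of Dusp7, -1.32 on the log2 scale (SE 0.057, adjusted p = 4.77e-11 by edgeR), was the largest of this list. Dusp10 and Dusp9 had log2 fold changes of -0.61 and -0.39. Tested genes on each side had a median of -0.39 for Dusp7, -0.52 for Dusp10 and 0.17 for Dusp9. The fall of Dusp10 was thus close to the median of the genes around it, and the part of chromosome position was not tested. Dusp2 was not tested. Of 14 other inhibitors acting at receptors or RAS, 13 were tested, 2 rose and 9 fell (median -0.44). Cbl, an E3 ubiquitin ligase of receptor kinases, fell by 0.71 on the log2 scale, from 267 ± 6.01 to 163 ± 1.92 CPM (SD, n = 3 each). Errfi1, an inhibitor of EGF receptor kinase activity, and Nf1, the RAS inactivator neurofibromin, had log2 fold changes of -0.60 and -0.59. Rises were seen in Dok1, an adaptor that recruits a RAS inactivator, and in Cblb, a paralog of Cbl, with log2 fold changes of 0.73 and 0.69.

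Among 18 other ERK-responsive output genes, all tested, 3 rose, 11 fell and 4 did not pass (median -0.36), against 32.8% higher and 30.8% lower of all genes tested. Epha4, an Eph receptor, Hbegf, an EGF receptor ligand, and the transcription factor Myc had the lowest log2 fold changes, -1.18, -1.09 and -0.89. Myc had 919, 982 and 887 CPM in P cells and 425, 480 and 596 CPM in AxR cells, with no overlap. Hbegf lies on chromosome 18, whose median was 0.50. Fosb, an AP-1 subunit, had 4.27 ± 0.305 CPM in P and 10.6 ± 1.37 CPM in AxR cells (SD, n = 3 each) and rose by 1.31 on the log2 scale (adjusted p = 7.17e-07 by edgeR). Egr1, an early response transcription factor on chromosome 18, had a log2 fold change of 0.64.

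Of 25 components of the cascade itself, 24 were tested, 10 rose, 7 fell and 7 did not pass (median 0.041). Over all genes tested, 63.5% were called, 32.8% being higher and 30.8% lower. The largest change of this list was in Nras, one of the RAS proteins (ENSMUSG00000027852.14, chromosome 3 from 103058285 to 103067914, plus strand). Nras had 336, 316 and 336 CPM in P cells and 2060.2, 2042 and 1917 CPM in AxR cells. Means were 329 ± 11.6 and 2007 ± 77.8 CPM (SD, n = 3 each), and the fitted rise was 6.10-fold, or 2.61 on the log2 scale (SE 0.051, adjusted p = 2.24e-14 by edgeR). Rps6ka1, a kinase activated by ERK, and Araf, a RAF kinase, had log2 fold changes of 0.90 and 0.68. Mras, a RAS-related protein, Gab2, an adaptor, and Sos2, a RAS activator, had log2 fold changes of -0.97, -0.64 and -0.52. Medians of the 25 tested genes on each side were 0.23 for Rps6ka1 and 0.54 for Araf. They were -0.44 for Mras, 0.13 for Gab2 and 0.045 for Sos2, and the part of chromosome position was not tested. Mapk3, an ERK gene named after its values were seen, had a log2 fold change of 0.34 (adjusted p = 0.000246 by edgeR).

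**Figure D4:**
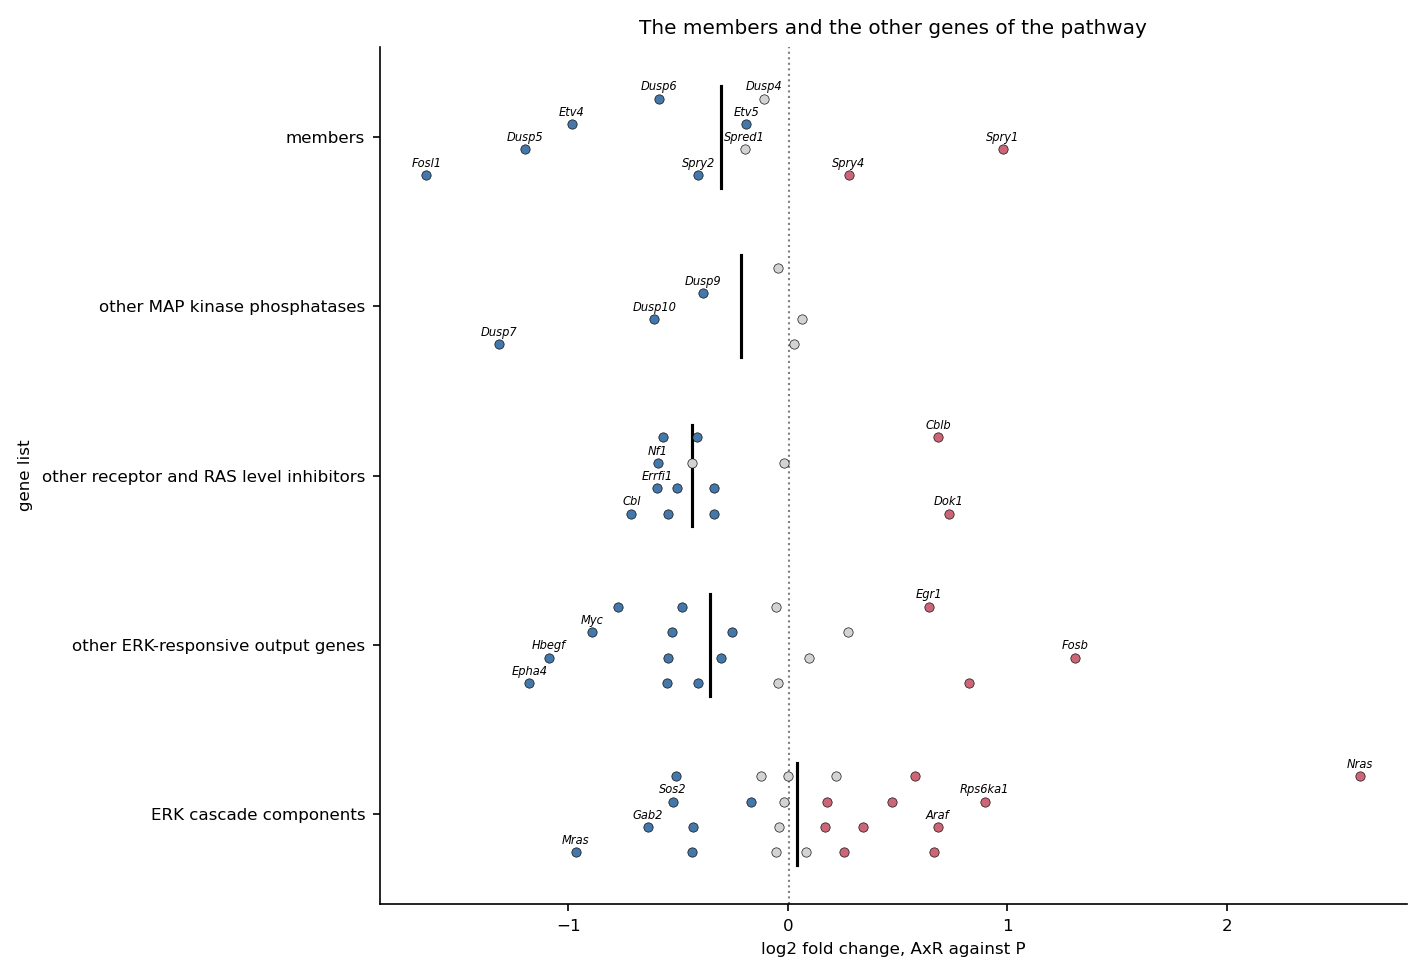
Log2 fold change in AxR against P cells of the members and of the tested genes of the 4 other lists (red, higher; blue, lower; grey, adjusted p of 0.05 or more; points are spread vertically only to separate them). Black lines are list medians, -0.30, -0.22, -0.44, -0.36 and 0.041 from top to bottom, the dotted line is the median of all genes tested, and Nras lies apart at 2.61.

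The rise of Nras was not shared by most genes around it. The 25 tested genes on each side had a median log2 fold change of 0.15.

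**Figure D5:**
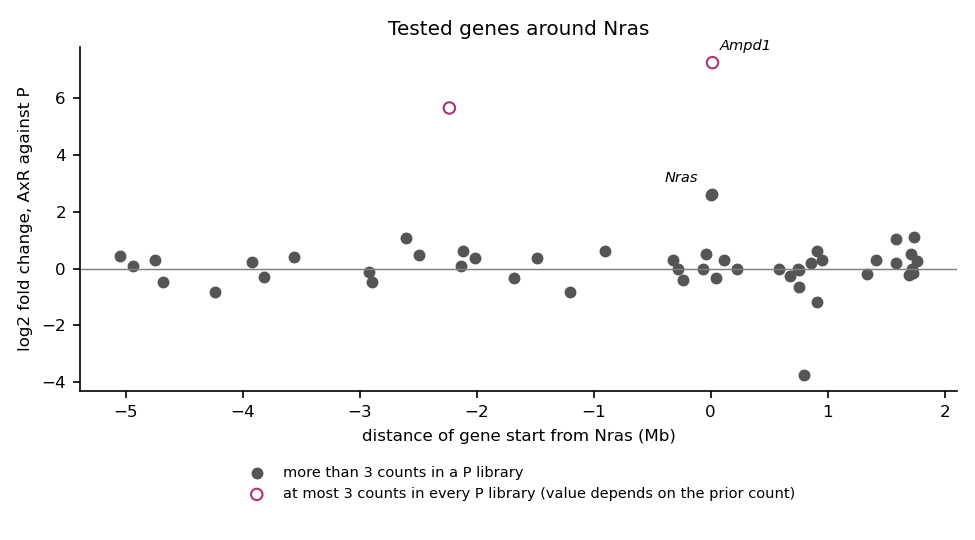
Log2 fold change in AxR against P cells of the 25 tested genes on each side of Nras, by distance of the gene start from that of Nras in Mb. Open circles have at most 3 counts in every P library, so their height depends on the prior count, and Nras stands at 2.61, while Ptpn22, at -3.75, is the lowest point.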

How the data were processed

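The authors checked reads with FASTQC 0.11.5, aligned them to GRCm38 with STAR 2.6.0a and GENCODE M16, checked alignments with RSeQC 2.6.5, and deposited estimated counts per gene from RSEM 1.3.1, before filtering and normalization. RSEM divides reads matching several genes, so that 10.3% to 10.7% of a library's values had decimals. Libraries were made with a stranded kit, but whether counting used strand is not given in the sources used here. Estimated counts were rounded. As in the study, edgeR was used with upper quartile normalization (factors 0.966 to 1.02); the filter, filterByExpr, was chosen here. The line was the only term in the robust quasi-likelihood fit, made in edgeR 4.0.16 and R 4.3.3, with Benjamini-Hochberg adjustment over the 13550 genes tested, which held 99.9% of the counts. Fold changes are given as log2. Symbols, positions and exon lengths came from GENCODE M21, the same build, with 53360 of 53465 identifiers found. Exact permutation tests used log2 CPM with a pseudocount of 0.5. Tests were tried on simulated data first.

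The members and lists were chosen with earlier results of these data known. From each other pathway list were named up to 3 genes per direction with the most extreme log2 fold changes, provided that they were called at 0.05, that the lines did not overlap and that the line with more had at least 5 CPM. Alternatives were TMM, library size only, DESeq2 1.42.0, limma-voom (limma 3.58.1), no filter, at least 10 counts in every library, the replicate number as a block, each library left out, and an added fold threshold. Sums over families and their alternatives were added after the data were seen. Promoter sequences came from RefSeq on GRCm38.p6, and the first transcribed bases of 5 of 7 windows were found in a GENCODE transcript. No library was left out of the main results. A few single genes are not reported here.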

Additional observations from a re-analysis of the deposited data

How the results depend on the processing

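Under normalization, tool and filter alternatives and with each library left out, no member changed direction, and Fosl1, Dusp5, Etv4, Dusp6, Spry1 and Spry2 passed in all 13 alternatives. The median log2 fold change of the members lay between -0.36 and -0.27, and that of all genes moved little, between -0.015 and 0.019. With each library left out, between 1 and 2 members were higher, Spry4 being lost without P replicate 3, and between 5 and 7 were lower. In the same fits, which tested between 13781 and 13867 genes, between 4124 and 4499 genes were higher and between 3782 and 4112 lower.

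Adding a minimum size of 1 on the log2 scale left 1083 genes higher and 640 lower. Of the members 0 were then higher by edgeR (2 at an unadjusted p under 0.05, 2 by DESeq2 and 2 by limma-voom without the added criterion) and 2 lower, Fosl1 and Dusp5, while Etv4 and Spry1 fell just short of it. Among other phosphatases 1 was lower. Of the inhibitors 0 were higher and 0 lower (2 and 9 at an unadjusted p, by DESeq2 and by limma-voom). Of the output genes 1 was higher and 2 lower, and of cascade components 1 was higher and 0 lower (8 lower at an unadjusted p, 8 by DESeq2 and 7 by limma-voom). This follows from the added criterion.

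Without correction for length, the difference in share between AxR and P cells was 18.8 points for Spry1, -16.6 for Spry2 and -2.21 for Spry4, against 20.97, -20.1 and -0.861, and the log2 ratio of the sum of Etv4 and Etv5 was -0.43 against -0.48.

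Both lines carry replicate numbers 1 to 3, but the numbers did not pair the libraries: deviations from the line means correlated at -0.0073, -0.16 and -0.24 across 9259 genes. With the replicate number as a block, 4304 genes were higher and 4023 lower, and 2 members were higher and 7 lower, Spred1 being added (adjusted p = 0.0459 by edgeR, range over all alternatives 0.00147 to 0.190). Depth did not limit the members, all with 308 counts or more per library.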

Other observations

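Nras rose by 2.61 on the log2 scale, and the genes named around it were set beside that value. Upstream, Sike1 had a log2 fold change of -0.0056. Downstream on the same strand, Ampd1, a muscle AMP deaminase, had no count in any P library and 0.889, 1.15 and 1.42 CPM in AxR libraries, at least 5.89-fold higher at the highest library floor of 3 counts. The unnamed gene Gm43062, between Nras and Ampd1, had 0.342 CPM in P and 2.18 CPM in AxR cells. Dennd2c and Bcas2, further on, had log2 fold changes of -0.34 and 0.29. Elsewhere among the 25 tested genes on each side, Ptpn22, a tyrosine phosphatase, had 62.8 CPM in P and 4.63 CPM in AxR cells and fell by 3.75 on the log2 scale (adjusted p = 2.42e-13 by edgeR), and Vtcn1, an immune checkpoint ligand, had at most 1 count per library in P cells and 1.403 CPM in AxR cells. These genes were named after their values were seen.

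Immediately downstream of Spry1 and on its strand, the unnamed gene Gm43820 had 0.283 CPM in P and 1.45 CPM in AxR cells and rose by 2.32 on the log2 scale (adjusted p = 3.98e-05 by edgeR). Fgf2, also close to Spry1 and a ligand of FGF receptors, had 2.06 CPM in P and 3.36 CPM in AxR cells (log2 fold change 0.70, adjusted p = 0.00696 by edgeR).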
